A study of Mus musculus with 45 samples.

Results

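Pancreatic islets of NZO/HlLtJ mice were compared with islets of C57BL/6J mice, both on a diet with 44% fat, across all genes. The samples were chosen by the strain, the fat content and the final letter for sex in their titles, and they came to 15 of the 45 samples of the series. They were 7 samples of NZO/HlLtJ (4 females and 3 males) and 8 of C57BL/6J (4 females and 4 males). Both are inbred mouse strains, and the labels name no transgene, deletion or drug in any of these groups. All of the animals ate the diet that is high in fat and sugar, with added fiber, from the age of 6 weeks, and tissue was taken at 15 weeks. The 7 NZO/HlLtJ and 8 C57BL/6J samples on the control diet with 10% fat were of the same age, and they were used here only to ask whether a strain difference depended on the diet. The labels do not say how many animals made 1 sample, so the spread behind each p-value is that between samples and may be technical in part.

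Islets are clusters of endocrine cells in the pancreas: beta cells secrete insulin, alpha cells glucagon and delta cells somatostatin. NZO mice are a polygenic model of obesity in which diabetes is known mostly from males, while C57BL/6J mice gain weight on such a diet but rarely become diabetic. Under a high glucose load beta cells can enlarge and divide. Stressed beta cells are known to lose their identity genes and to switch on genes that a mature beta cell keeps silent.

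RNA was polyA selected and read as 150-base pairs, and each library held between 71452645 and 97837765 estimated counts. Of 22904 genes in the table, 19251 passed a filter on low counts. Levels are in CPM, counts scaled to a common library size, fold changes are on the log2 scale as NZO/HlLtJ minus C57BL/6J with their standard error (SE), and a call means an adjusted p under 0.05 by edgeR's quasi-likelihood test with Benjamini-Hochberg adjustment, written below as edgeR adjusted p. One library stood apart: male 3 of NZO/HlLtJ had 15.4 CPM of Xist, the RNA made from the inactive X chromosome, where the other 6 males had at most 1.5 CPM and the females at least 531 CPM. It also held the highest share of acinar counts, 21.7%. Without it 12307 genes were called in the main comparison in place of 12599. Some other counts are given without it, but not every count that it moved. The insulin gene Ins2 stood at 28560.5 CPM or more in every library. RNA of some other pancreatic cells differed between the strains, as the plot of marker shares shows. The 29 genes of the digestive-enzyme-making acinar cells took 4.32% to 21.7% of counts in NZO/HlLtJ and 0.270% to 17.9% in C57BL/6J (exact permutation test, two-sided, p = 0.186, adjusted p = 0.209 over 9 marker lists). Stellate and fibroblast markers took 0.139% to 0.532% against 0.0503% to 0.0778%, and macrophage markers 0.0211% to 0.145% against 0.0118% to 0.0227% (exact permutation test, adjusted p = 0.00140 and 0.00210). None of the markers in these 3 lists was at 0 in every NZO/HlLtJ library, while 1 macrophage entry, Itgam, was at 0 in every C57BL/6J library. The 20 macrophage markers had 21 entries, so an entry at 0 need not mean that its marker was absent. In bulk tissue, more cells of a type and more RNA per cell cannot be told apart.

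**Figure D1:**
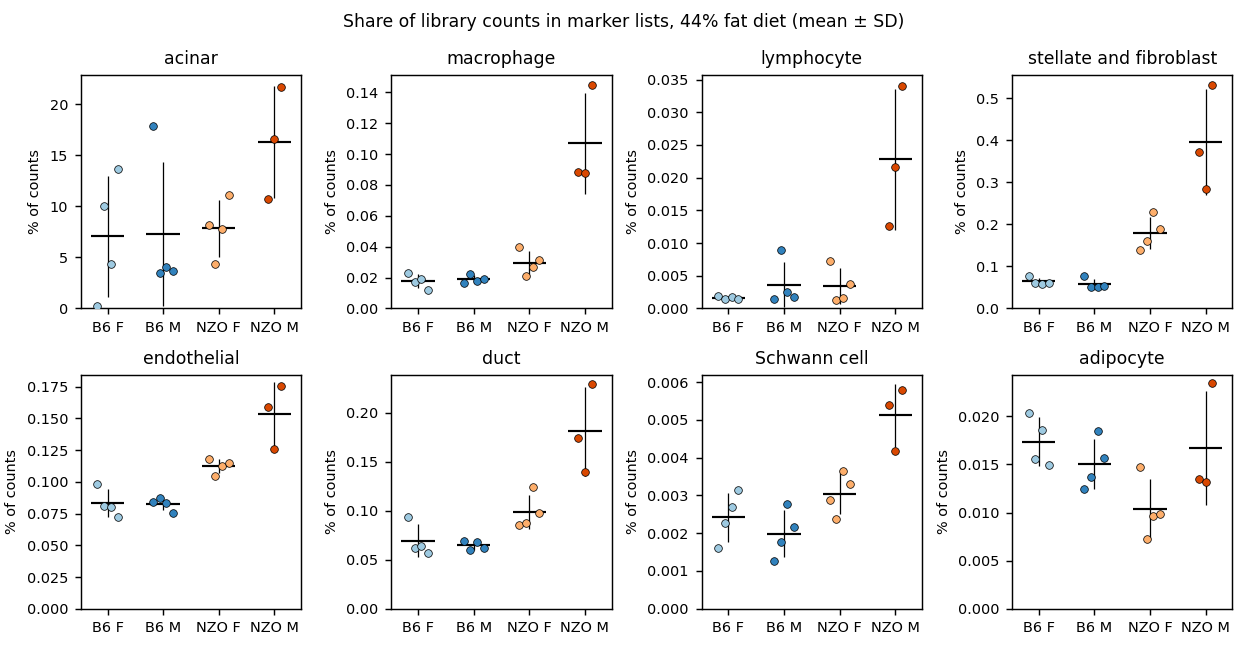
Share of all counts (percent, linear axes) taken by the markers of 8 cell types that an islet sample can hold, with 1 point per library for females and males of each strain on 44% fat. Stellate shares did not overlap between the strains (0.139% to 0.532% against 0.0503% to 0.0778%), while acinar shares did (4.32% to 21.7% against 0.270% to 17.9%).

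The strains differed in most of the transcriptome. Of the 19251 genes, 12599 (65.4%) were called, 6394 (33.2%) of them higher in NZO/HlLtJ and 6205 (32.2%) lower, and the median over all genes was -0.02. At least 2-fold differences were called for 5208 genes (27.1%), 3061 of them higher and 2147 lower. All 7 NZO/HlLtJ libraries lay above all 8 C57BL/6J libraries for 2231 genes (11.6%) and below them for 2422 (12.6%). The share of genes called was similar on every autosome, between 61.4% and 69.5%. The counts for each gene group below are to be read against these shares. With the acinar score as a covariate 9210 genes were called. This score was the mean log2 CPM of the acinar genes in each library, and not their share of counts.

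The protein-coding genes that differed by most without overlap included Cldn11, a tight junction protein. Its lowest, median and highest values were 64.2, 145 and 348 CPM in NZO/HlLtJ and 0.608, 1.14 and 1.75 CPM in C57BL/6J. The ranges lay far apart, and the fold change was log2 6.84 ± 0.33, edgeR adjusted p = 1.42e-08. The gene spans chr3:31149920-31164324 (GRCm38). The interferon-induced GTPase Mx1 reached 15.3, 46.9 and 78.4 CPM in NZO/HlLtJ and 0.233, 0.634 and 1.52 CPM in C57BL/6J, again without overlap (log2 5.90 ± 0.44, edgeR adjusted p = 3.66e-07). The serum proteins Itih1 (4.92 ± 0.25) and Apob (3.76 ± 0.25), and the extracellular matrix genes Fn1 (3.74 ± 0.31), Postn (3.65 ± 0.18) and Col6a5 (4.61 ± 0.37) were also among the 12 higher genes with the largest changes, and so was the clotting factor subunit F13a1 (4.07 ± 0.32). Among the 12 largest falls, Gad1, the enzyme that makes GABA in beta cells, had 3.66, 10.6 and 24.1 CPM in NZO/HlLtJ and 82.6, 122 and 141 CPM in C57BL/6J, a clear gap between the strains (log2 -3.85 ± 0.19, edgeR adjusted p = 1.49e-08). The gene lies at chr2:70553072-70602014. Akr1c12, an aldo-keto reductase, fell by 4.46, the elongation-factor-like gene Tceanc2 by 3.93, the vesicle-trafficking GTPase Rab6b by 3.63, the cadherin Cdh7 by 3.33 and the cannabinoid receptor Cnr1 by 2.69 on the log2 scale. Hist2h2aa1 also stood on this list, but most of its transcript is shared with a sister histone gene, so its value is uncertain. The same holds for Prss1, Prss3, Hba-a1, Hba-a2 and Ccl19.

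The insulin genes did not separate the strains in the pooled comparison. Ins2, the main insulin gene of the mouse, ranged from 28560.5 to 98091 CPM in NZO/HlLtJ with a median of 69776, and from 51079 to 78594 CPM in C57BL/6J with a median of 65671. The NZO/HlLtJ range enclosed the other, and the difference was log2 -0.01 ± 0.29, edgeR adjusted p = 0.972. By sex, Ins2 differed by 0.56 in females and -0.59 in males, neither called (edgeR adjusted p = 0.312 and 0.307). The difference between the sexes was not called either (edgeR adjusted p = 0.290). In males Ins2 took 2.67% to 5.28% of counts in NZO/HlLtJ and 5.78% to 8.49% in C57BL/6J. In females it took 6.92% to 8.58% and 5.11% to 8.22%, with overlap. Ins1 differed by log2 0.25 ± 0.27, edgeR adjusted p = 0.438. Iapp, the amyloid peptide co-secreted with insulin, differed by log2 0.50 ± 0.22, edgeR adjusted p = 0.0637. Hormones of the other endocrine cells were lower in the pooled comparison. Glucagon (Gcg) had 9651, 12048 and 16431 CPM in NZO/HlLtJ and 11836, 27657 and 62799.7 CPM in C57BL/6J, and the ranges overlapped (log2 -1.12 ± 0.25, edgeR adjusted p = 0.00153). Somatostatin (Sst) had 1123, 1416 and 1618 CPM in NZO/HlLtJ and 2367, 3351 and 5381 CPM in C57BL/6J, without overlap (log2 -1.27 ± 0.15, edgeR adjusted p = 9.82e-06). Pyy fell by 0.71 (edgeR adjusted p = 0.000641) and pancreatic polypeptide (Ppy) by 0.87 (edgeR adjusted p = 0.0119); with the acinar share as a covariate Ppy differed by -0.11 and was not called (edgeR adjusted p = 0.735). Ghrelin (Ghrl) was at 0.0110 to 0.220 CPM in NZO/HlLtJ and 1.27 to 7.34 CPM in C57BL/6J. In all, 5 of 8 hormones were lower and none higher. In females 5 were lower and in males 2, against 21.5% and 23.9% of all genes. By sex, Gcg differed by -1.94 in females and -0.31 in males, Pyy by -1.24 and -0.18, and Ppy by -1.49 and -0.25, and none of these 3 was called in males. The difference between the sexes was not called for them (edgeR adjusted p = 0.105, 0.0664 and 0.207). Of 15 markers of alpha and delta cells 9 were lower and 4 higher, with a median of -0.86. In females 10 were lower and 2 higher (median -1.19), against 21.5% and 22.6% of all genes. In males 5 were lower and 4 higher (median -0.29), against 23.9% and 26.8% of all genes. In the test of the sexes 2 of these markers were called. The arginine transporter Slc7a2 (-1.22 ± 0.12) and the ghrelin receptor Ghsr (-1.46 ± 0.12) were among the 3 with the smallest p-values.

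**Figure D2:**
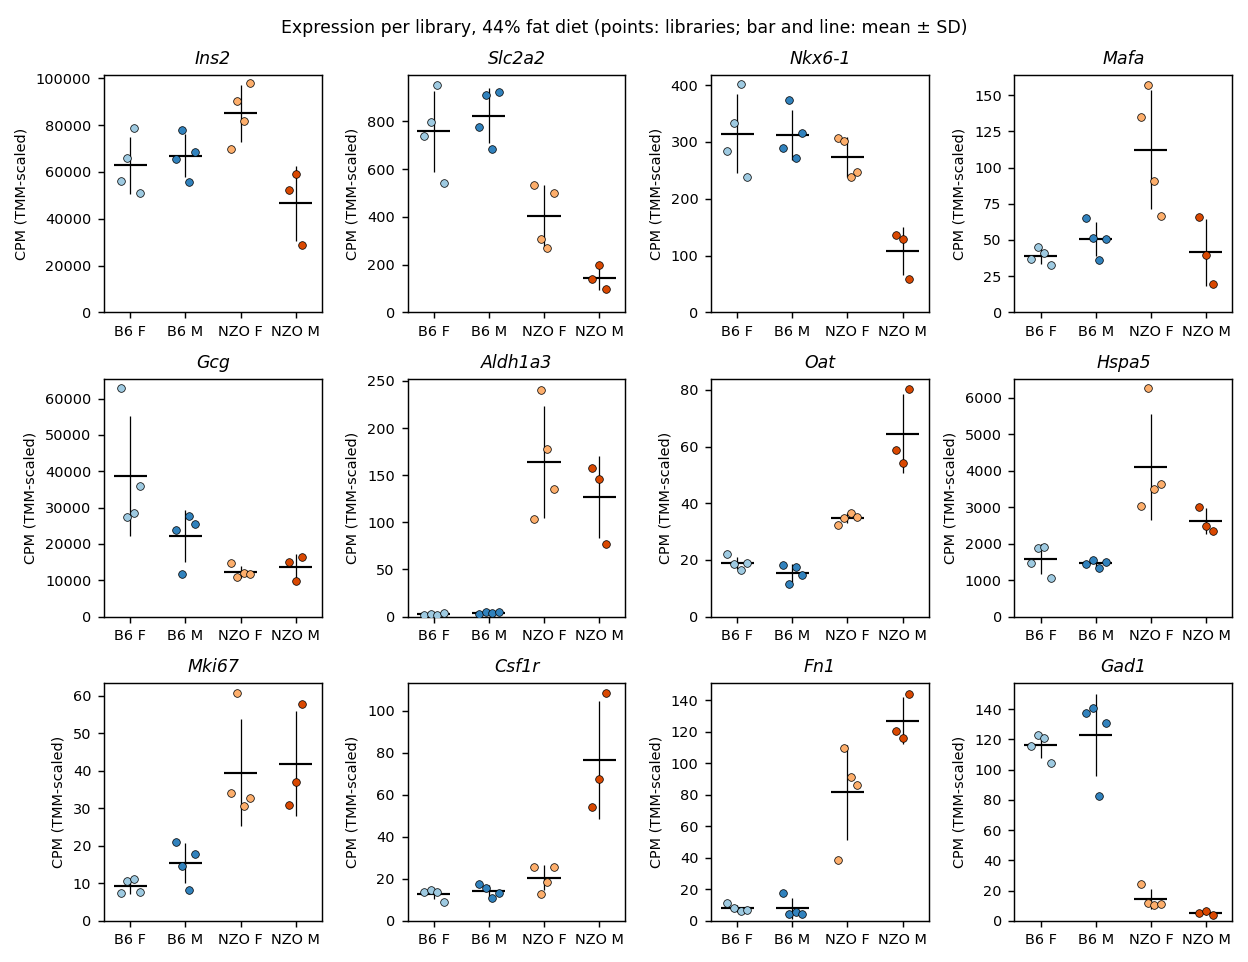
CPM (linear axes) of 12 named genes in each of the 15 libraries on 44% fat, split by strain and sex, with points for libraries and bars for the mean ± SD. Slc2a2, Nkx6-1 and Gad1 were lowest in NZO/HlLtJ males, Aldh1a3 stood at 76.5 CPM or more in every NZO/HlLtJ library and at 5.35 CPM or less in every C57BL/6J library, and Ins2 overlapped.

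Genes of beta cell identity fell as a group, although the insulin genes were not called in the pooled comparison. Of 31 tested, 23 were lower and 3 higher, against 32.2% lower and 33.2% higher among all genes, and the median was -0.49. Slc2a2, the glucose transporter of the beta cell, at chr3:28697903-28731359, had 97.9, 271 and 534 CPM in NZO/HlLtJ and 542, 788 and 954 CPM in C57BL/6J; every NZO/HlLtJ library lay below every C57BL/6J library (log2 -1.70 ± 0.19, edgeR adjusted p = 9.51e-06). The receptors for both incretin hormones were lower. The GIP receptor (Gipr) had 6.91, 26.6 and 41.6 CPM in NZO/HlLtJ and 55.9, 72.9 and 115 CPM in C57BL/6J, without overlap (log2 -2.02 ± 0.14, edgeR adjusted p = 2.28e-07). The GLP-1 receptor (Glp1r) had 24.3, 127 and 184 CPM in NZO/HlLtJ and 137, 163 and 235 CPM in C57BL/6J, with overlap (log2 -1.04 ± 0.19, edgeR adjusted p = 0.000346). Trpm5, a cation channel that acts in glucose-stimulated secretion, had 7.65, 45 and 71.4 CPM in NZO/HlLtJ and 111, 128 and 150.0 CPM in C57BL/6J (log2 -2.27 ± 0.16, edgeR adjusted p = 2.72e-07). The islet transcription factor Isl1 had 19.2, 37.0 and 49.7 CPM in NZO/HlLtJ and 91.7, 104 and 144 CPM in C57BL/6J (log2 -1.68 ± 0.09, edgeR adjusted p = 3.83e-08). For neither of these genes did the ranges touch. Nkx6-1, a beta cell transcription factor, had 58.4, 239 and 306 CPM in NZO/HlLtJ and 239, 302 and 401 CPM in C57BL/6J, with overlap in the female libraries (log2 -0.88 ± 0.17, edgeR adjusted p = 0.000452). Pdx1, the factor that directs pancreas and beta cell fate, was not called (log2 -0.07 ± 0.14, edgeR adjusted p = 0.662). Mafa, which drives insulin transcription, was higher by a small margin (log2 0.45 ± 0.18, edgeR adjusted p = 0.0471), and this call was lost with the acinar score as a covariate. With that covariate 17 of the 31 genes were lower and 2 higher. Without male 3 of NZO/HlLtJ 20 were lower and 4 higher, with a median of -0.33.

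The fall in beta cell genes was seen mainly in males. Over the 31 genes the median difference was -0.16 in females and -1.06 in males, with 8 genes lower and 6 higher in females, near the 21.5% and 22.6% of all genes, and 24 lower and 2 higher in males, against 23.9% and 26.8%. Over all genes 44.1% were called in females and 50.7% in males. The test of the difference between the sexes called 985 genes of all 19251 (5.12%), of which 513 (2.66%) had the higher strain difference in males and 472 (2.45%) the lower, and 12 of the 31 were among the latter. All 3 NZO/HlLtJ males, with 97.9, 140.0 and 197 CPM of Slc2a2, lay below all 4 females of their strain, which had 271, 309, 498 and 534 CPM. Slc2a2 differed by -0.74 in females and -2.65 in males (male minus female -1.91 ± 0.44, edgeR adjusted p = 0.0373). The males also held the 3 lowest levels of Nkx6-1 among the 15 libraries, 58.4, 129.8 and 136 CPM. For Nkx6-1 the values were -0.09 and -1.67 (male minus female -1.58 ± 0.37, edgeR adjusted p = 0.0376), for Glp1r -0.25 and -1.84 (male minus female -1.59 ± 0.42, edgeR adjusted p = 0.0492). Mafa was higher in NZO/HlLtJ females (1.38) and had -0.49 in males, where it was not called (male minus female -1.88 ± 0.41, edgeR adjusted p = 0.0328). These calls rested on single libraries. Leaving out 1 library at a time moved the count among the 31 genes between 0 and 17, and it was 0 without male 2, female 2 or female 4 of C57BL/6J. Over all genes, leaving out male 2 of C57BL/6J left 0 calls of a difference between the sexes by edgeR (3274 genes had an unadjusted p under 0.05), while DESeq2 on all 15 libraries called 2974.

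**Figure D3:**
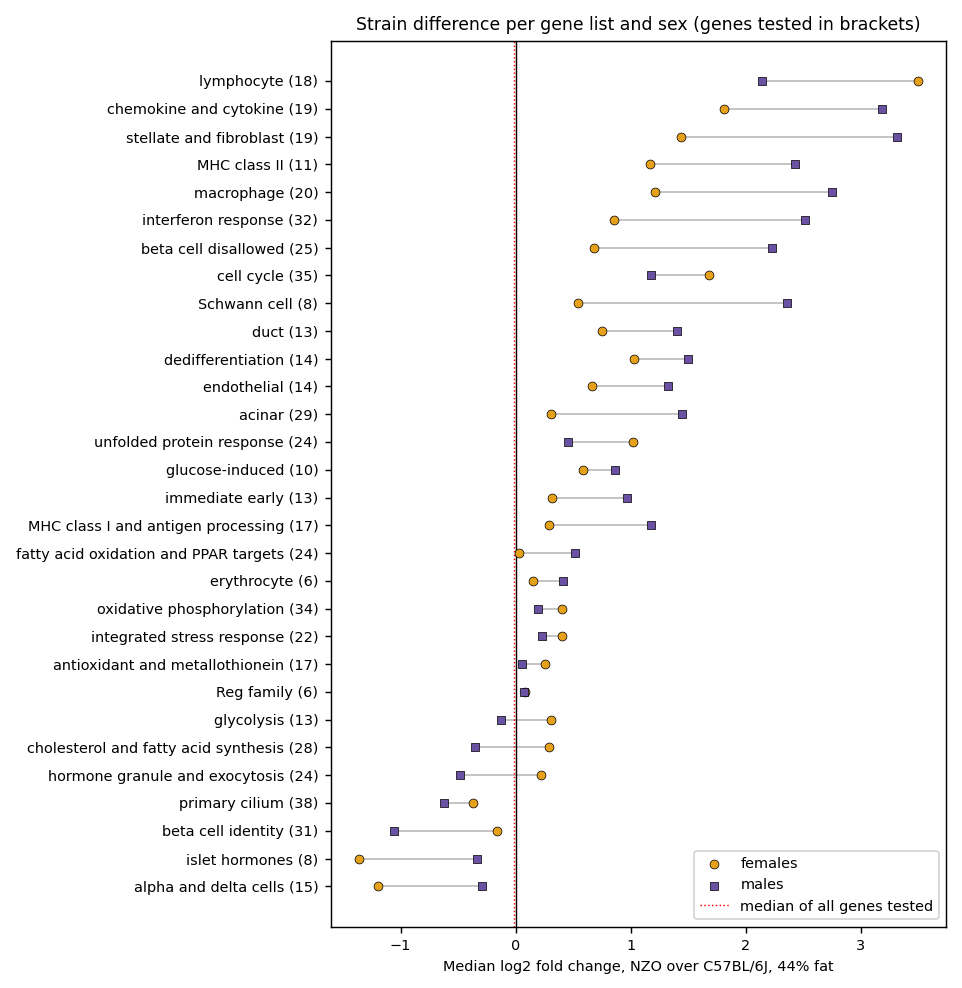
Median log2 difference (NZO/HlLtJ minus C57BL/6J, 44% fat) over the genes of each of 30 lists, for females (circles) and males (squares). Beta cell identity lay at -0.16 in females and -1.06 in males, interferon response at 0.85 and 2.51, and the unfolded protein response at 1.02 and 0.45.

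Genes of the secretory granule and of exocytosis moved both ways: of 24, 11 were lower and 5 higher, with a median of -0.13. In females 7 were higher and 3 lower (median 0.22) and in males 3 were higher and 11 lower (median -0.49), and 1 was called in the test of the sexes. Vgf, a granule peptide precursor, had 77.1, 179.6 and 373 CPM in NZO/HlLtJ and 15, 20.3 and 32.7 CPM in C57BL/6J (log2 3.17 ± 0.24, edgeR adjusted p = 3.73e-07), and the prohormone convertase chaperone Scg5 had 956, 1659.7 and 2085 CPM in NZO/HlLtJ and 474, 546 and 686 CPM in C57BL/6J (log2 1.53 ± 0.14, edgeR adjusted p = 1.91e-06). Both were above in every NZO/HlLtJ library. Rims2, a scaffold of the release site, fell by 0.78 (edgeR adjusted p = 1.1e-06).

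Genes that mature beta cells are known to repress, often called disallowed genes, were higher. Of 25, 24 were called higher and none lower, with a median of 1.47. Oat, a mitochondrial aminotransferase, had 32.5, 36.7 and 80.5 CPM in NZO/HlLtJ and 11.5, 17.9 and 21.9 CPM in C57BL/6J, without overlap (log2 1.49 ± 0.11, edgeR adjusted p = 4.12e-07). The same was seen for Parp3 (log2 2.48 ± 0.13, edgeR adjusted p = 2.16e-08) and for Ndrg2 (log2 1.77 ± 0.14, edgeR adjusted p = 6.53e-07). The median over the 25 genes was 0.68 in females and 2.23 in males, and 9 were called in females and 25 in males. The female count was 6 without female 4 and 16 without male 1 of C57BL/6J, and 5 with the acinar score as a covariate. Of these genes 8 were called in the test of the sexes, with 0 without male 2 and 24 without male 1 of C57BL/6J. The stellate and macrophage marker shares moved with this list, and 1 gene of it, Pdgfra, is itself a fibroblast marker; the part of other cell types in the rise was not tested.

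Genes linked to dedifferentiation or to altered beta cell identity were also mostly higher, 10 of 14, with 2 lower and a median of 1.21. Aldh1a3, a retinaldehyde dehydrogenase used as a mark of failing beta cells and encoded at chr7:66390890-66427517, had 76.5, 146 and 240.4 CPM in NZO/HlLtJ and 1.86, 3.25 and 5.35 CPM in C57BL/6J (log2 5.48 ± 0.27, edgeR adjusted p = 1.42e-08). The difference was of similar size in females (5.96) and males (5.01), and on the 10% fat diet it was 4.96. Cholecystokinin (Cck), a peptide hormone, was at 2.07, 19.5 and 95.0 CPM in NZO/HlLtJ and at most 0.0845 CPM in C57BL/6J. The sugar transporter gene Slc5a10 spread from 0.274 to 108 CPM within NZO/HlLtJ, against 0.286 to 0.655 CPM in C57BL/6J, so the strains overlapped at the low end. Among 10 genes induced by glucose, 6 were higher and 1 lower. The glycerol phosphate dehydrogenase Gpd1 had 39.2, 50.4 and 64.4 CPM in NZO/HlLtJ and 22.8, 28.3 and 34.5 CPM in C57BL/6J, without overlap (log2 0.89 ± 0.10, edgeR adjusted p = 1.02e-05). Txnip, a redox regulator, had 226, 945 and 1480.0 CPM in NZO/HlLtJ and 379, 448 and 561 CPM in C57BL/6J; it was higher by log2 0.97 ± 0.22, edgeR adjusted p = 0.00178, with overlap.

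Genes of the unfolded protein response, which expands the folding capacity of the endoplasmic reticulum, rose together. Of 24, 19 were higher and none lower, with a median of 0.73, and 11 of them did not overlap between the strains. The chaperone BiP (Hspa5) had 2345, 3043 and 6262 CPM in NZO/HlLtJ and 1054, 1485 and 1918 CPM in C57BL/6J, without overlap (log2 1.09 ± 0.18, edgeR adjusted p = 0.000144). Creld2 had 178, 237 and 573 CPM in NZO/HlLtJ and 46.5, 64.9 and 81.9 CPM in C57BL/6J (log2 2.06 ± 0.18, edgeR adjusted p = 1.34e-06), and Sdf2l1 (1.36 ± 0.15) and Dnajb11 (1.33 ± 0.15), both chaperone cofactors, were also higher in every library. In females the median was 1.02 with 20 genes higher, in males 0.45 with 8 higher and 1 lower. The male count of 8 moved between 2 (without male 2 of C57BL/6J or male 1 of NZO/HlLtJ) and 13 (without female 2 of NZO/HlLtJ) when 1 library was left out. It was 3 with the acinar score as a covariate and 14 without the term for runs of sample numbers. The difference between the sexes was called for 2 of the 24 genes. Of 22 genes of the integrated stress response, 7 were higher and 2 lower, and without male 3 of NZO/HlLtJ 5 were higher and 2 lower. Psat1, an enzyme of serine synthesis, led them (log2 1.32 ± 0.15, edgeR adjusted p = 6.96e-06), and the lipoprotein receptor Vldlr was 1 of the lower genes (log2 -0.71 ± 0.12, edgeR adjusted p = 0.000256). Of 17 antioxidant and metallothionein genes 10 were higher, among them Gpx1 (0.72 ± 0.08) and Prdx1 (0.56 ± 0.06), and 4 were lower, among them the secreted peroxidase Gpx3 (-1.27 ± 0.18).

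Cell cycle genes were higher almost without exception: 34 of 35 were called higher and none lower, with a median of 1.44, and for 26 of them every NZO/HlLtJ library lay above every C57BL/6J library, against 11.6% of all genes. Mki67, the proliferation marker Ki-67, had 30.5, 33.9 and 60.7 CPM in NZO/HlLtJ and 7.47, 10.8 and 20.9 CPM in C57BL/6J (log2 1.74 ± 0.20, edgeR adjusted p = 9.88e-06). Mcm5, a subunit of the replicative helicase, had 9.57, 13.1 and 19.0 CPM in NZO/HlLtJ and 3.01, 3.69 and 5.06 CPM in C57BL/6J (log2 1.90 ± 0.13, edgeR adjusted p = 2.43e-07), and the ribonucleotide reductase subunit Rrm2 had 10.5, 11.7 and 17.4 CPM in NZO/HlLtJ and 2.80, 3.40 and 4.63 CPM in C57BL/6J (log2 1.88 ± 0.14, edgeR adjusted p = 3.56e-07). None of these ranges overlapped. The median was 1.68 in females and 1.18 in males, and no gene of the list was called in the test of the sexes. On the 10% fat diet 26 of the 35 were higher and 2 lower. Macrophages, fibroblasts and endothelial cells also divide, and their marker shares moved with these genes; which cells carried the transcripts was not tested.

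The promoters of 2 of these helicase genes are shown, from among promoters that held both motifs marked below. They were picked because members of the list rose together and because Mcm6 also changed its strain difference with diet. They are the 250 bases before the annotated start, from RefSeq (GRCm38.p6), read along the gene's own strand: chr8:75109259-75109508 on the plus strand for Mcm5 and chr1:128359706-128359955 on the minus strand for Mcm6. Capitals mark matches on either strand to TTTNNCGC, the core of an E2F site, and to CCAAT; N stands for any base, and matches that overlap run together. The genes were chosen after their values were seen.
Mcm5: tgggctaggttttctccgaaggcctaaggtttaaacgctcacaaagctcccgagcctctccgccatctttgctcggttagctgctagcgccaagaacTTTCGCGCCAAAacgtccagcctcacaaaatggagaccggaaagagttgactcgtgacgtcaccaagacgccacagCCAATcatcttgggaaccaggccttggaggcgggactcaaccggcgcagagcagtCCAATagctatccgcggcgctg
Mcm6: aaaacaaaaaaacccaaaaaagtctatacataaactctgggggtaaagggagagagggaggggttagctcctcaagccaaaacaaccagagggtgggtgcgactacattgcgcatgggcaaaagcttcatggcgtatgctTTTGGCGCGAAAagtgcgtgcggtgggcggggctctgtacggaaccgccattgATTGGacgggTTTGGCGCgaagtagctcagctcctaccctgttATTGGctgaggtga
Of 28 cell cycle genes with a matched promoter, 22 (78.6%) held CCAAT and 5 (17.9%) held the E2F letters, against 39.3% and 7.51% of the 12656 tested genes with a promoter. The 2 promoters shown had to hold both motifs, so their matches are fixed by the choice. A match is a description of the letters and not of a bound site.

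Genes of the primary cilium, the sensory antenna that beta cells carry, moved the other way. Of 38, 30 were lower and 1 higher, with a median of -0.44, and 19 lay below in every NZO/HlLtJ library, against 12.6% of all genes. Ift88, an intraflagellar transport protein, had 12.1, 19.1 and 24 CPM in NZO/HlLtJ and 32.1, 35.2 and 40.9 CPM in C57BL/6J (log2 -1.0 ± 0.08, edgeR adjusted p = 4.49e-07). Dync2h1, the motor that carries cargo back from the ciliary tip, had 38.3, 52.1 and 77.4 CPM in NZO/HlLtJ and 99.5, 120.4 and 139 CPM in C57BL/6J (log2 -1.21 ± 0.09, edgeR adjusted p = 4.3e-07), and Ttc8, a subunit of the BBSome coat, had 10.1, 16.3 and 22.6 CPM in NZO/HlLtJ and 31.2, 32.0 and 37.1 CPM in C57BL/6J (log2 -1.08 ± 0.09, edgeR adjusted p = 5.68e-07). All of these were without overlap. The gene that was higher was Ift20, named here after its value was seen. The fall was also present on 10% fat, where 23 of the 38 genes were lower and 1 was higher. The X-box motif of RFX factors, searched on both strands, was in 2 of 31 cilium promoters (6.45%) against 1.52% of all.

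**Figure D4:**
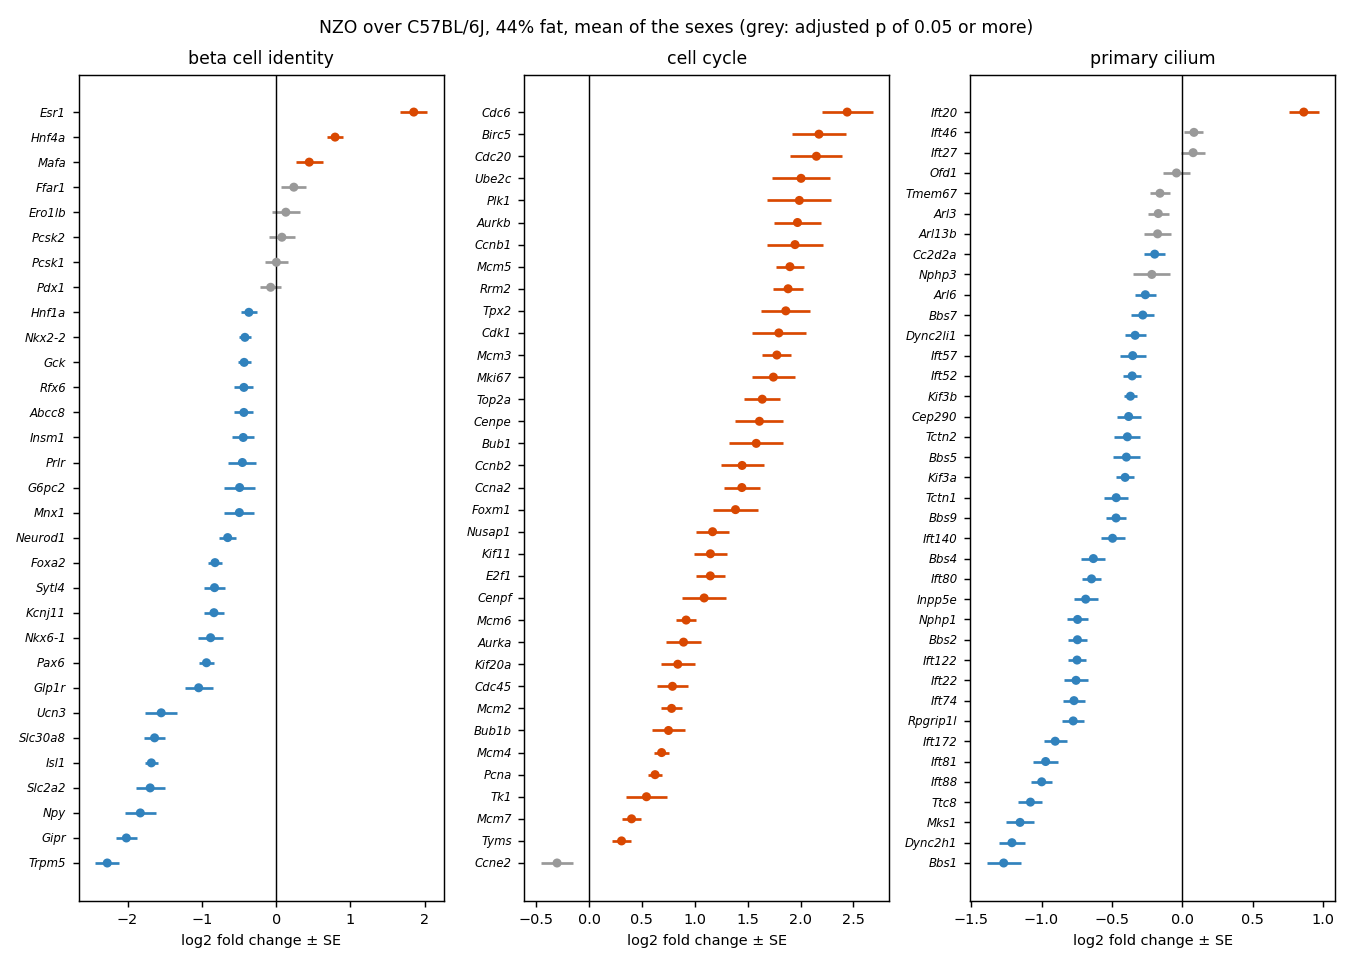
Log2 fold change ± SE (NZO/HlLtJ minus C57BL/6J, 44% fat, 7 against 8 libraries) of each tested gene of the beta cell identity, cell cycle and primary cilium lists, ordered by size, with uncalled genes in grey. Of the beta cell genes 23 of 31 were lower, of the cell cycle genes 34 of 35 higher and of the cilium genes 30 of 38 lower.

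Genes of oxidative phosphorylation, which makes ATP in mitochondria, were slightly higher: 27 of 34 were higher and 1, Sdha, was lower, with a median of 0.31, and 16 did not overlap between the strains. The ATP synthase subunit Atp5g1 had 89.9, 108 and 162 CPM in NZO/HlLtJ and 39.3, 45.7 and 57.3 CPM in C57BL/6J, higher in every NZO/HlLtJ library (log2 1.25 ± 0.09, edgeR adjusted p = 3.63e-07). On 10% fat 28 of the 34 were higher and none lower. Nnt, the mitochondrial transhydrogenase that is deleted in part in C57BL/6J mice, had 55.1, 77.5 and 114 CPM in NZO/HlLtJ and 27.0, 30.9 and 33.2 CPM in C57BL/6J (log2 1.45 ± 0.11, edgeR adjusted p = 3.93e-07); 47.4% of its exon length overlaps another annotated gene. Among 13 genes of glycolysis, 5 were higher and 2 lower. Gapdh had 98.7, 107 and 139.6 CPM in NZO/HlLtJ and 42.2, 48.0 and 66.2 CPM in C57BL/6J (log2 1.06 ± 0.07, edgeR adjusted p = 1.76e-07), and Eno1 (0.84 ± 0.09) and Gpi1 (0.59 ± 0.06) were higher too. Fatty acid oxidation and PPAR target genes were higher for 14 of 24 and lower for 3, with the carnitine carrier Slc25a20 at 0.53 ± 0.09 and Cpt2 at -0.42 ± 0.07. With the acinar score as a covariate 7 were higher and 2 lower, and without male 3 of NZO/HlLtJ 11 were higher and 4 lower. Of 28 genes of cholesterol and fatty acid synthesis 8 were higher and 7 lower, with 11 higher and 1 lower in females (median 0.29) and 5 higher and 9 lower in males (median -0.35); 3 were called lower in males in the test of the sexes. The desaturase Fads2 had 22.7, 34.1 and 54.0 CPM in NZO/HlLtJ and 9.11, 11.4 and 15.3 CPM in C57BL/6J (log2 1.74 ± 0.12, edgeR adjusted p = 2.4e-07) and its neighbour Fads1 was higher by 0.65 (edgeR adjusted p = 6.5e-06), while Srebf2, the transcription factor that turns on cholesterol synthesis, fell by 0.64 (edgeR adjusted p = 5.64e-06).

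Interferon response genes, which cells switch on against viruses, were higher in NZO/HlLtJ: 30 of 32 were called higher and 1 lower, with a median of 1.67. Ifi27 had 41.0, 53.0 and 85.6 CPM in NZO/HlLtJ and 15, 17.1 and 18.7 CPM in C57BL/6J (log2 1.86 ± 0.08, edgeR adjusted p = 9.42e-09), and the deconjugating protease Usp18 had 28.3, 36.1 and 52.3 CPM in NZO/HlLtJ and 13.2, 15.6 and 16.8 CPM in C57BL/6J (log2 1.37 ± 0.08, edgeR adjusted p = 9.22e-08), both without overlap. The gene that was lower was Mx2, at -1.90, and Rsad2 was the gene not called, at -0.17 (edgeR adjusted p = 0.510); both are named after their values were seen. The median was 0.85 in females and 2.51 in males, with 12 genes called higher and 2 lower in females, and 30 higher and 1 lower in males. The female count of 12 moved between 5 (without female 1 of NZO/HlLtJ) and 18 (without female 2 of NZO/HlLtJ) when 1 library was left out, and it was 7 with the acinar score as a covariate. Macrophage markers, with medians of 1.21 and 2.75, and stellate markers, with 1.44 and 3.32, moved with this list in the same way by sex, and their part was not tested. In the test of the sexes 9 of the 32 were called, between 0 and 30 when 1 library at a time was left out.

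Promoters of 4 interferon genes are shown, from among promoters that held the motif marked below, because these genes, except Rsad2, rose together. Isg15 had 1.12, 3.46 and 11.4 CPM in NZO/HlLtJ and 0.464, 0.709 and 0.816 CPM in C57BL/6J, without overlap (log2 2.84 ± 0.24, edgeR adjusted p = 9.48e-07). Oas1a was at 1.89 ± 0.22 and Bst2 at 1.94 ± 0.23, both with overlap, and Rsad2 had 3.97, 13.0 and 32.0 CPM in NZO/HlLtJ inside and around the 9.81 to 17.1 CPM of C57BL/6J. Shown are the 250 bases before the start from RefSeq (GRCm38.p6), each on its minus strand: chr4:156200819-156201068 for the ubiquitin-like Isg15, chr5:120907526-120907775 for the RNA sensor Oas1a, chr8:71537473-71537722 for the virus tether Bst2 and chr12:26456453-26456702 for the antiviral enzyme Rsad2. Capitals mark matches on either strand to the core of the interferon-stimulated response element, searched as a pair of GAAA runs with any 2 bases between them; matches can overlap each other. The genes were chosen after their values were seen.
Isg15: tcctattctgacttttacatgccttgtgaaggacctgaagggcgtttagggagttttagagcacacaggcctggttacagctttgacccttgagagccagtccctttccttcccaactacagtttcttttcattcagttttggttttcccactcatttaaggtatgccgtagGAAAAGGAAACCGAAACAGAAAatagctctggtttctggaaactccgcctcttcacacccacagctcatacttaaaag
Oas1a: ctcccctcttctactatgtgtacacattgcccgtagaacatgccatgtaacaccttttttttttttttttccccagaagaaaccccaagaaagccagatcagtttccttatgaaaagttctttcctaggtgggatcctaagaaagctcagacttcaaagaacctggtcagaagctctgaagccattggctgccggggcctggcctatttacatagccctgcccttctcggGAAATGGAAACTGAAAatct
Bst2: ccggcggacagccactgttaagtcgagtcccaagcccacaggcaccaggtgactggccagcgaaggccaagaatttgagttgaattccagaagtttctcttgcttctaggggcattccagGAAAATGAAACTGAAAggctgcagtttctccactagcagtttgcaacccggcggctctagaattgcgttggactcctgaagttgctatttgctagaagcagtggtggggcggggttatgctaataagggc
Rsad2: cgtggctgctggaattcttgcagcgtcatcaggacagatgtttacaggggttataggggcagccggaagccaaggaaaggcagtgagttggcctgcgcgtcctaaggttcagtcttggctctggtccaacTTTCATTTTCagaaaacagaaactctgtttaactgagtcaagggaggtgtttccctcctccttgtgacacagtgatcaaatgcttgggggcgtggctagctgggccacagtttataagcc
Of 21 interferon genes with a matched promoter, 12 (57.1%) held these letters, against 3.24% of the 12656 tested genes with a promoter. The 4 promoters shown had to hold a match, so their matches are fixed by the choice. Rsad2 held 1 match and was not called.

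Antigen presentation genes were higher as well. Of 17 genes of MHC class I and antigen processing 13 were higher and 1 lower (median 0.59). B2m, the light chain of class I molecules, had 100.2, 464 and 971 CPM in NZO/HlLtJ and 59.8, 73.2 and 88.3 CPM in C57BL/6J, without overlap (log2 2.36 ± 0.31, edgeR adjusted p = 2.76e-05), and the peptide transporter Tap2 (1.08 ± 0.10) and the immunoproteasome subunit Psmb8 (1.87 ± 0.26) were among those with the smallest p-values. All 11 MHC class II genes were higher, with a median of 2.02. H2-Eb1 had 53.3, 177 and 662 CPM in NZO/HlLtJ and 38.0, 52.7 and 59.3 CPM in C57BL/6J; the lowest NZO/HlLtJ library lay inside the C57BL/6J range (log2 2.02 ± 0.24, edgeR adjusted p = 1.17e-05). H2-Ea-ps was at 18 to 192 CPM in NZO/HlLtJ and at 0 to 0.243 CPM in C57BL/6J. All 20 macrophage entries that were tested, of 21 measured, were higher, with a median of 1.94, against 33.2% of all genes. The colony-stimulating factor receptor Csf1r had 12.8, 25.4 and 108 CPM in NZO/HlLtJ and 8.99, 13.8 and 17.5 CPM in C57BL/6J, with overlap (log2 1.57 ± 0.18, edgeR adjusted p = 8.52e-06). The complement subunit C1qa had 53.0, 88.8 and 148 CPM in NZO/HlLtJ and 25.2, 33.1 and 43.7 CPM in C57BL/6J (log2 1.59 ± 0.14, edgeR adjusted p = 1.22e-06), and the lysosomal glycoprotein Cd68 had 4.53, 6.54 and 25.8 CPM in NZO/HlLtJ and 1.68, 2.37 and 3.16 CPM in C57BL/6J (log2 2.13 ± 0.16, edgeR adjusted p = 3.66e-07), both without overlap. The median of the list was 1.21 in females and 2.75 in males. Lymphocyte markers were at low levels in both strains: 16 of 18 were higher, with a median of 2.85. Unlike for macrophages, the median was larger in females (3.50, with 15 higher and 1 lower) than in males (2.14, with 10 higher and 0 lower). In the test of the sexes 1 of the 18 was called. Nkg7, a granule protein of killer cells, was at 0.144, 1.66 and 3.93 CPM in NZO/HlLtJ and 0.0106, 0.0382 and 0.265 CPM in C57BL/6J, and the summed lymphocyte share did not pass the exact permutation test (adjusted p = 0.0709). Of 19 chemokines and cytokines 14 were higher and none lower. Osteopontin (Spp1) had 120.3, 334 and 1217 CPM in NZO/HlLtJ and 27.7, 33.3 and 101 CPM in C57BL/6J (log2 3.33 ± 0.34, edgeR adjusted p = 3.68e-06) and Tgfb1 had 11.9, 13.4 and 32.6 CPM in NZO/HlLtJ and 5.65, 7.91 and 8.34 CPM in C57BL/6J (log2 1.28 ± 0.10, edgeR adjusted p = 6.95e-07), both without overlap. Spp1 is also on the list of duct markers, whose share of counts was higher in NZO/HlLtJ (exact permutation test, adjusted p = 0.00210). The part of duct cells in its rise was not tested.

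Markers of the islet stroma, vessels and nerves were mostly higher. All 19 stellate and fibroblast markers were higher, with a median of 2.36, and 13 did not overlap between the strains. Fibronectin (Fn1) had 38.8, 109.8 and 144 CPM in NZO/HlLtJ and 4.15, 6.5 and 17.4 CPM in C57BL/6J (log2 3.74 ± 0.31, edgeR adjusted p = 8.58e-07). The pericyte genes Rgs5 (430.3, 660.0 and 773 CPM in NZO/HlLtJ and 131, 162 and 181 CPM in C57BL/6J, log2 2.04 ± 0.12, edgeR adjusted p = 7.21e-08) and Pdgfrb (log2 2.01 ± 0.12, edgeR adjusted p = 6.86e-08) were higher in every library too. All 14 endothelial markers were higher, with a median of 1.05. Plvap, which forms the diaphragms of fenestrated capillaries, had 213, 254.9 and 377 CPM in NZO/HlLtJ and 109, 131 and 158 CPM in C57BL/6J (log2 1.05 ± 0.10, edgeR adjusted p = 1.88e-06), and Cd34 (1.17 ± 0.10) and Eng (1.09 ± 0.10) were higher by a similar amount. Of 8 Schwann cell markers 7 were higher, with the neural crest factor Sox10 at 1.60 ± 0.21. Of 13 duct markers 8 were higher and 2 lower, with Krt18 at 1.22 ± 0.14 and Anxa2 at 1.72 ± 0.18. Of 29 acinar genes 6 were called, all higher, although the median was 0.91. Their levels varied widely within each strain, and leaving out 1 library at a time moved this count between 5 and 23; it was 23 without male 1 of C57BL/6J. The chymotrypsin gene Ctrc had 668, 1621 and 3687 CPM in NZO/HlLtJ and 2.50, 10.7 and 224 CPM in C57BL/6J, without overlap (log2 6.4 ± 0.75, edgeR adjusted p = 1.15e-05). Of the Reg genes, which encode secreted lectins of the stressed pancreas, Reg2 fell by 3.47 (edgeR adjusted p = 0.00429) and Reg3g rose by 3.48 (edgeR adjusted p = 0.00231). The Reg3g call was lost with the acinar score as a covariate.

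Genes named in the literature for alleles that differ between these strains were read in the same table. Lefty1, a ligand inhibitor of the TGF-beta family, was at 0 to 0.0320 CPM in NZO/HlLtJ and 5.14 to 8.0 CPM in C57BL/6J. The leptin receptor (Lepr) had 9.86, 16.8 and 37.1 CPM in NZO/HlLtJ and 3.76, 5.44 and 8.0 CPM in C57BL/6J (log2 1.91 ± 0.18, edgeR adjusted p = 2.32e-06). The lipid transfer protein Pctp fell by 0.92 (edgeR adjusted p = 1.43e-05), the restriction factor Apobec3 was at 1.11 ± 0.19 and the cholesterol exporter Abcg1 at 0.29 ± 0.08. Zfp69, a zinc finger gene, was not called (log2 0.15 ± 0.17, edgeR adjusted p = 0.439). The deposited counts use a build of the C57BL/6J genome, and how strain variants affect the assignment of NZO/HlLtJ reads was not tested.

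The genes with the smallest p-values in the test of the sexes showed differences that a pooled value hides. The sorting receptor Sorcs2 differed by -0.57 in females and 2.04 in males (male minus female 2.62 ± 0.26, edgeR adjusted p = 0.00302). Ache, the acetylcholinesterase, differed by -0.81 and 0.86 (male minus female 1.67 ± 0.23, edgeR adjusted p = 0.0119), with a pooled difference of 0.02. The mitochondrial protein Chchd10 differed by 0.64 and -0.45 (male minus female -1.08 ± 0.13, edgeR adjusted p = 0.0101). In these 3 genes the strain effect had opposite signs in the sexes and was called in both. The ketone-using enzyme Oxct1 (0.26 and -1.33), the lipocalin Apod (-0.23 and 1.86), Ahnak2 (-1.15 and 1.72) and Nebl (-1.58 and 0.46) also had values of opposite sign, although those of Oxct1 and Apod in females and of Nebl in males were not called. The values of Pfkfb2 (-0.58 and -2.02), Tmem255a (-1.92 and -3.32), Bcr (-0.14 and -0.95), Cdh8 (-0.11 and -2.32) and the interferon-gamma receptor subunit Ifngr2 (0.24 and 1.26) had 1 sign in both sexes and were larger in males; those of Bcr and Cdh8 in females were not called. Each of these calls was lost when some single library was left out, with edgeR adjusted p reaching 0.0508 to 0.194.

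The numbers in the sample titles fall into 3 runs, and the labels do not say what a run stands for. Each run held libraries of both strains (3, 2 and 2 of NZO/HlLtJ and 2, 3 and 3 of C57BL/6J) but not the same mix of sexes, and the fit held a term for the runs, which called 0 genes itself. Within the runs the median log2 CPM differences were -0.30, -1.30 and -0.17 for beta cell identity, 0.58, 2.30 and 1.04 for disallowed genes, 1.22, 2.47 and 0.53 for interferon response, 1.11, 2.76 and 1.00 for macrophage markers, and 1.21, 3.32 and 2.07 for stellate markers. They were 1.09, 1.45 and 1.03 for the cell cycle, -0.41, -0.66 and -0.36 for the cilium, 0.98, 0.26 and 1.01 for the unfolded protein response, and 0.31, 0.18 and 0.47 for oxidative phosphorylation. Each of these kept its sign in all 3 runs, while the immediate early genes, of which 3 of 13 were called higher, did not (-1.41, 1.24 and 1.17). For 7 of these 9 lists the difference was largest in the middle run, in which the NZO/HlLtJ libraries were males only.

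The strain difference depended on the diet for fewer genes. In a fit of 30 libraries on both diets, the difference between the strains changed with diet for 3505 of 19721 genes (17.8%), 2068 (10.5%) of them toward higher and 1437 (7.29%) toward lower values in NZO/HlLtJ on 44% fat. With the acinar score as a covariate 1212 genes were called, without NZO/HlLtJ male 3 on 44% fat 2505, and without NZO/HlLtJ male 3 on 10% fat 5518. The split toward higher values was 59.0% of calls here, 47.5% in a fit of all 45 samples and 49.4% without the filter on low counts. On 10% fat alone the strains differed in 8396 of 19721 genes (42.6%), 4520 (22.9%) higher and 3876 (19.7%) lower. Both comparisons share the 10% fat libraries.

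The strain difference in macrophage markers changed with diet: 18 of 20 were called toward higher values on 44% fat, and 16 with the acinar score as a covariate. On 10% fat alone 2 of the 20 were higher and none lower. Csf1r differed by -0.13 between the strains on 10% fat, and its strain difference grew by 1.72 ± 0.25 (edgeR adjusted p = 0.000423). The macrophage genes Adgre1 (2.08 ± 0.29), C1qc (1.94 ± 0.29) and Fcgr3 (1.96 ± 0.27) were among the 8 upward genes with the smallest p-values, with the glycolytic regulator Pfkfb3 (1.5 ± 0.19), Cyth4 (1.58 ± 0.23), Scarf2 (1.5 ± 0.21) and the helicase subunit Mcm6 (0.84 ± 0.12). In the other direction stood Gad1, whose strain difference was -2.04 on 10% fat and changed by -1.80 ± 0.23 (edgeR adjusted p = 0.000167). With it were Tmem25 (-1.12 ± 0.15), the proton pump subunit Atp4a (-1.29 ± 0.19), Skap1 (-0.77 ± 0.10), the prostaglandin D synthase Hpgds (-1.10 ± 0.15), the ganglioside enzyme St8sia1 (-1.46 ± 0.21), Gnpda1 (-0.98 ± 0.15) and the enolase Eno2 (-0.71 ± 0.09). Eno2 was higher in NZO/HlLtJ on 10% fat (0.57) and not called on 44% fat (log2 -0.16 ± 0.07, edgeR adjusted p = 0.0587).

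Of the beta cell identity genes 15 of 31 changed toward lower values and none toward higher. The count was 10 with the acinar score as a covariate and 14 without NZO/HlLtJ male 3 on 44% fat. On 10% fat 9 were lower and 5 higher, with a median of -0.09. Slc2a2 changed by -1.02 ± 0.24 (edgeR adjusted p = 0.00622) and Nkx6-1 by -0.91 ± 0.18 (edgeR adjusted p = 0.0024). Disallowed genes changed toward higher values for 23 of 25, but this was 5 with the acinar score as a covariate and 17 without NZO/HlLtJ male 3 on 44% fat. Stellate markers changed for 19 of 19, with 4 and 13 under those 2 settings, and interferon genes for 22 of 32, with 9 and 17. Cilium genes changed toward lower values for 14 of 38, with 3 and 10. MHC class II genes changed for 9 of 11 and cell cycle genes for 13 of 35, both with 8 under the covariate. Without NZO/HlLtJ male 3 on 44% fat these counts were 7 and 9. The strain differences in the unfolded protein response (1 of 24) and in oxidative phosphorylation (1 higher and 2 lower of 34) changed for few genes. The acinar share in NZO/HlLtJ ran from 4.32% to 21.7% on 44% fat and from 2.33% to 10.7% on 10% fat, with overlap. The part of acinar RNA in the diet differences was not tested beyond the acinar score as a covariate.

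**Figure D5:**
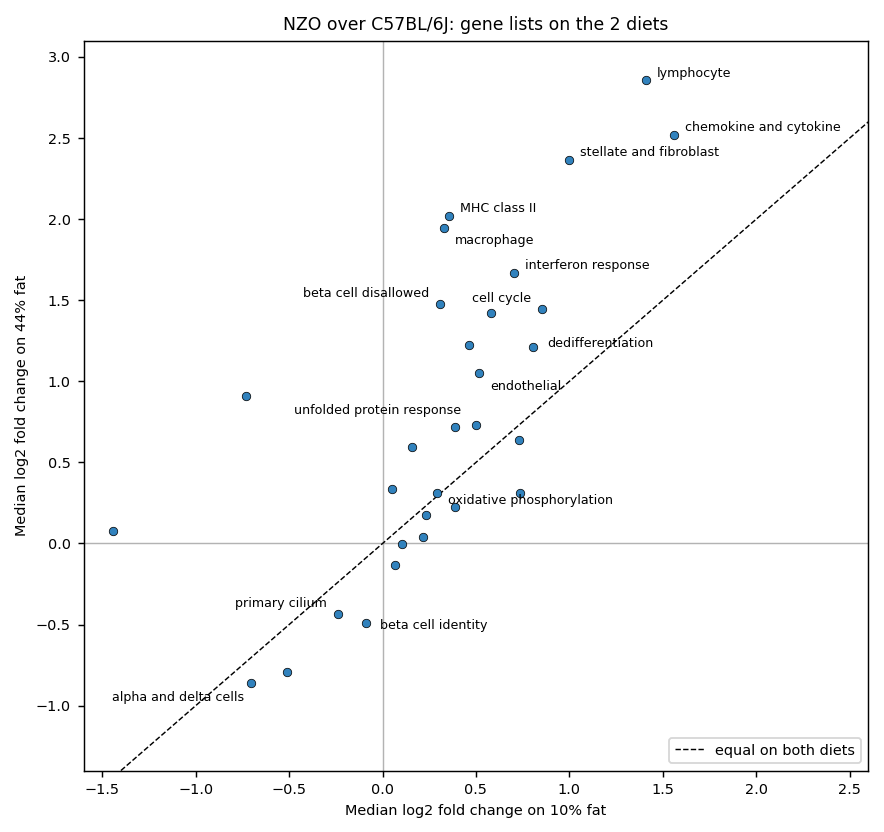
Median log2 difference between NZO/HlLtJ and C57BL/6J over the genes of each list, on 10% fat (horizontal) and 44% fat (vertical), with the line of equal values. Macrophage markers lay at 0.33 and 1.94, beta cell identity at -0.09 and -0.49, and oxidative phosphorylation near the line at 0.29 and 0.31.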

How the data were processed

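The values were estimated counts per gene, deposited by the authors in 1 table and not whole numbers throughout (80.6% of values lay within 1e-06 of a whole number). Per the submitters' processing notes, the build was GRCm38 and DESeq2 was among the tools. Neither aligner nor counter is named: both were not given in the sources used here. Estimated counts were rounded to whole numbers. Expression was tested with edgeR 4.0.16 in R 4.3.3 (TMM scaling, filterByExpr with a minimum count of 10, quasi-likelihood fit, Benjamini-Hochberg adjustment over all genes tested). The fit held 4 groups of strain and sex plus a term for 3 runs of sample numbers, with 9 residual degrees of freedom, and the strain effect was the mean of the female and male differences. A fit of 30 libraries with 8 groups gave the test of diet. CPM used TMM scaling over those 30 libraries. Library totals ran from 71452645 to 97837765 on 44% fat. No 2 libraries of a group agreed within sampling noise (over 21 pairs, chi-square divided by its degrees of freedom was at least 52.8). Marker shares were compared by a two-sided exact permutation test in SciPy 1.17.1. Spiked-in control RNA was not analysed here. A few genes that the naming rule picked are not reported here.

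The members and the 33 gene lists were chosen with earlier results of these data known. Genes were named by rule: the 12 protein-coding genes per direction with the largest called difference, no overlap, the same sign in both sexes and a mean log2 CPM of at least 2; the 8 per direction with the smallest p in the test of diet and the 6 in the test of the sexes; the 3 with the smallest p in each list; all islet hormones and strain-allele genes; and 11 further genes (Slc2a2, Mafa, Pdx1, Nkx6-1, Aldh1a3, Mki67, Csf1r, Glp1r, Gipr, Hspa5, Txnip). Alternatives were DESeq2 1.42.0, RLE scaling, no filter, other covariates, all 45 samples and leaving out each library. On simulated counts with 100 genes changed by a log2 of 1 and 100 by 2, 91% and 99% were recovered for the strain difference among 18882 genes. For the difference between the sexes it was 33% and 82% among 18909 genes, and for diet 74% and 97% among 19351. The changed genes all had a mean above 1 CPM, so recovery at lower levels was not simulated. They were also fewer than the genes called in the data. A gene counted as uncertain when it shared at least 50% of its 31-base words with another gene. Gene coordinates follow the gene annotation deposited with the counts. GENCODE mouse release 21 gave the gene types, exons and transcript sequences.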

Additional observations from a re-analysis of the deposited data

Results flagged for a closer look

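The strain difference itself differed between the sexes for 985 genes and between the diets for 3505 genes, each by a test of the difference across all genes with edgeR and Benjamini-Hochberg adjustment. Among 67 genes looked at singly, 28 were called in the test of the sexes, against 5.12% of all genes; 12 of the 67 had been picked for their small p in this same test, so the count is fixed in part by the choice. The male minus female differences on the log2 scale were positive for Ahnak2 (2.87), Sorcs2 (2.62), Apod (2.09), Nebl (2.04), C1qc (1.86), Pfkfb3 (1.70), Ache (1.67), Scarf2 (1.65), Cyth4 (1.62), Fcgr3 (1.48) and Ifngr2 (1.02). They were negative for F13a1 (-2.84), Otoa (-2.76), Cdh8 (-2.21), St8sia1 (-2.19), Slc2a2 (-1.91), Mafa (-1.88), Gad1 (-1.83), Glp1r (-1.59), Oxct1 (-1.58), Nkx6-1 (-1.58), Gipr (-1.57), Pfkfb2 (-1.44), Tmem255a (-1.4), Atp4a (-1.26), Chchd10 (-1.08), Skap1 (-0.95) and Bcr (-0.81). F13a1, a subunit of a clotting factor made by macrophages among other cells, had the opposite sign to the macrophage genes C1qc and Fcgr3.

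A single library stood far from the other 3 of its group in 15 of 228 groups of 4 tested (6.58%), where chance gives about 1 in 20. Several of these fell on the same libraries. C57BL/6J male 1 had the highest Fn1 (17.4 CPM against 4.15 to 5.50), acinar share (17.9% against 3.43% to 4.09%) and stellate share (0.0761% against 0.0503% to 0.0536%). In C57BL/6J male 2 the lymphocyte share (0.00888% against 0.00150% to 0.00255%) and Ctrc (224 CPM against 6.34 to 34.9) were highest and Ahnak2 (2.00 CPM against 3.70 to 3.81) was lowest. NZO/HlLtJ female 1 had the highest Mx1 (78.4 CPM against 15.3 to 24.3), Gad1 (24.1 CPM against 10.6 to 11.9), Gnpda1 (60.0 CPM against 37.9 to 41.4) and Eno2 (49.9 CPM against 48.2 to 48.3). In other libraries of NZO/HlLtJ, Mki67 was highest in female 2 (60.7 CPM against 30.5 to 33.9) and Atp4a in female 4 (7.53 CPM against 5.56 to 5.85). In C57BL/6J, Fcgr3 was lowest in female 4 (1.87 CPM against 2.65 to 2.80) and Cdh8 in male 3 (63.9 CPM against 82.9 to 85.0), and the erythrocyte share was highest in female 2 (0.0225% against 0.0118% to 0.0124%). The 3 NZO/HlLtJ males were too few to be looked at in this way.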

How the results depend on the processing

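The number of genes that differed between the strains on 44% fat stayed within 1.5 times of 12599 in every setting tried. It ran from 9210 with the acinar score as a covariate to 13540 in a fit of all 45 samples, and between 11776 and 12863 when 1 library at a time was left out. Counts in females ran from 5762 to 9054 and in males from 7315 to 9927 when 1 library was left out. Of 156 named genes tested for the strain difference, 139 kept their call under all 23 settings, 12 lost it in some, 5 gained it and 0 reversed. The test of the sexes was less stable: it called 2974 genes by DESeq2, 2186 without the term for number runs, and 0 to 2281 when 1 library was left out, with 0 without C57BL/6J male 2, 6 without female 4, 24 without female 2 and 94 without female 1, and 2281 without C57BL/6J male 1. Of the calls 52.1% were toward higher values in males, and 62.4% without the term for number runs. The test of diet called 1212 genes with the acinar score as a covariate and 2337 to 5518 when 1 library was left out. Counts within lists under these settings were added after the data were seen. The cause of these shifts was not tested. No paired analysis was possible because the labels give no replicate numbers shared between the strains. On simulated counts the test of the sexes recovered 33% of changes set at a log2 of 1 and 82% of those at 2, in genes with a mean above 1 CPM.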

Other observations

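The libraries of 1 group did not all look like their group in the genes that differed by most within NZO/HlLtJ, which are named here after their values were seen. On 10% fat, male 3 of NZO/HlLtJ had 82.2 CPM of the sugar transporter gene Slc5a10, 21.8 CPM of Cck, 70.3 CPM of Sorcs2, 271 CPM of Slc2a2 and 201 CPM of Nkx6-1. The other 6 NZO/HlLtJ libraries on 10% fat had at most 1.09 CPM of Slc5a10, 2.29 CPM of Cck and 29.2 CPM of Sorcs2, and at least 500.5 CPM of Slc2a2 and 313 CPM of Nkx6-1. The 3 males on 44% fat had 80.5 to 108 CPM of Slc5a10, 79.6 to 95.0 CPM of Cck and 103 to 110.5 CPM of Sorcs2, so for these genes male 3 on the control diet stood between its group and the males on the high-fat diet, or within the latter. On 44% fat, female 1 of NZO/HlLtJ stood apart in the other direction, with 0.274 CPM of Slc5a10, 2.07 CPM of Cck and 534 CPM of Slc2a2, where the other 3 females had 4.10 to 8.55, 10.3 to 19.5 and 271 to 498 CPM. Gad1 was at 24.1 CPM in that female and at 10.6 to 11.9 CPM in the other 3, against 13.3 to 53.4 CPM in the 7 NZO/HlLtJ libraries on 10% fat. Blood glucose or body weight of these animals was not analysed here.

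The remaining lists held few calls. Of 13 immediate early genes 3 were higher and none lower, among them Fosl2 (log2 1.18 ± 0.23). Of 3 tested adipocyte markers, Fabp4 (log2 1.48 ± 0.30) and Plin4 were higher and Lpl was lower. The Plin4 and Lpl calls were lost with the acinar score as a covariate. Of 6 erythrocyte genes 1 was higher and 1 lower, and these were Hba-a1 and Hba-a2, near-identical copies whose reads cannot be told apart with certainty.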
